A study of Mus musculus with 12 samples.

Results

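Gene expression in the lateral habenula was compared between stress-susceptible and non-defeated mice, in 8 of the 12 libraries of the series: 4 from susceptible and 4 from non-defeated animals. Members were chosen by the group label, and all 17416 genes of the table entered, of which 17111 passed a filter on low counts. The mice were C57BL/6, 9 weeks old, with no genetic change given in the labels. Susceptible mice had been exposed to social defeat, in which an animal is attacked by a stronger one, and were classed by the authors as susceptible. Non-defeated mice had not. Tissue was punched from brain slices of 500 µm, and 100 pg of RNA was amplified for each library. A punch holds neurons, glia and vessels together, so that in these data fewer cells of a type cannot be told apart from less RNA per cell.

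Neurons of the lateral habenula, a nucleus of the epithalamus, are mostly glutamatergic and signal aversive events and missing rewards. Its axons reach the rostromedial tegmental nucleus, the dopamine neurons of the midbrain and the serotonin neurons of the raphe, and raised habenular firing is known from rodent models of depression. Social defeat is a common model because part of the defeated animals later avoid other mice and part do not. The groups differed in that behaviour: the social avoidance test gave, in the authors' deposited table, interaction ratios of 0.69, 0.63, 0.13 and 0.55 for susceptible mice, against 1.26, 1.84, 1.12 and 1.57 in non-defeated mice. The ranges did not overlap. If the mice were classed by this same test, that split follows from the classing and is not a separate result.

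Libraries held 35.1 to 47.7 M reads (M, 1000000 reads), so that a level of 1 CPM (1 read per 1000000) stood for at least 35 reads, and 1 read for 0.0209 to 0.0285 CPM. Levels below are CPM after trimmed-mean (TMM) scaling, and fold changes were taken as log2(CPM + 1), a scale on which changes of scarce genes look smaller than they are. The non-defeated libraries 3 and 4 stood apart from the other 6 on the first 2 principal components, which held 21% and 19.3% of the variance. A letter in the sample titles, whose meaning the labels do not give, is H in all 4 non-defeated libraries and in susceptible 1 and 2, and N in susceptible 3 and 4. The behaviour sheet names 1 mouse for each library, while the sample labels do not themselves say that each library is a separate animal. The p-values and standard errors (SE) come from a fit over all 12 libraries of the series. Those of resilient mice, defeated and classed by the authors as resilient, are included. They therefore measure the spread between samples within every group of the series, not that of the 8 libraries alone.

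No gene passed an adjusted p of 0.05. The limma-trend test, with Benjamini-Hochberg adjustment over 17111 genes, called 0 genes (0%), and the smallest adjusted p was 0.139. Unadjusted p was under 0.05 for 298 genes that were higher in susceptible mice (1.74%) and for 308 that were lower (1.8%). Chance alone would put a share of 0.05 of all genes under that limit, more than was seen. By edgeR's quasi-likelihood test 0 genes were called and 504 had an unadjusted p under 0.05. By voom with quality weights 0 were called and 731 were under 0.05. DESeq2 called 23 genes, 9 higher and 14 lower, of which 16 had no read at all in 1 of the groups. Of the genes named below it called Brs3, Gm4793, Abcc4, Arhgap25, Tshb, Kat6a, Brd7, Shq1 and Usp31.

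Genes were then described by whether the groups overlap, and a gene whose groups do not is called apart. All 4 susceptible values lay above all 4 non-defeated values for 190 genes (1.11%) and below them for another 190 (1.11%), together 2.22% of genes tested. These shares are the background against which the counts for gene families below are to be read. With 4 libraries in each group, chance alone would set apart no smaller a share of genes. The 111 lists were chosen with earlier results of these data known. A family's share above the background is therefore a description and not a test. The median log2 fold change over all genes was 0.01, with 8924 genes higher and 8187 lower. Apart from Brs3 and Gm4793, every gene named below had an adjusted p of 0.998 in the limma-trend fit, so each is described by its levels and none is called changed.

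**Figure D1:**
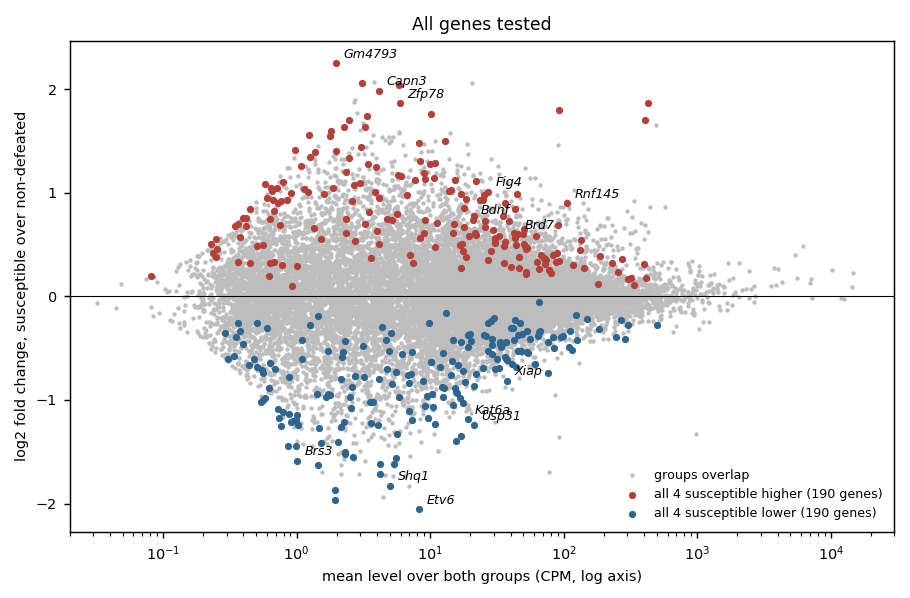
Each point is 1 of the 17111 genes tested, with its mean level over both groups in CPM on a log axis and its log2 fold change, susceptible over non-defeated. Red points are the 190 genes with all 4 susceptible libraries above, blue points the 190 with all 4 below, and grey points the genes whose groups overlap. Coloured points lie at all levels and on both sides of 0.

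Both genes with the smallest adjusted p were scarce. Brs3, an orphan receptor of the bombesin family, had 0 reads in all 4 susceptible libraries, against 1.77, 1.67, 2.40 and 2.23 CPM in the non-defeated libraries. With the susceptible group at its floor of 3 pooled reads, this is at least 104-fold lower (adjusted p 0.139, limma-trend, and 0.013, DESeq2). This floor, like that for Arhgap25 below, covers counting error only. Gm4793, annotated as an antisense transcript within Nav1, had 2.43, 3.27, 4.05 and 6.11 CPM in susceptible libraries and 1 pooled read in the non-defeated group (adjusted p 0.139, limma-trend, and 1.0e-05, DESeq2). The use of strand in counting is not given in the sources used here, so reads of Nav1 pre-mRNA could have entered its count.

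The gene rule took protein-coding genes of at least 2 CPM on average whose groups did not overlap, outside the convertase, matrix, blood and cytosolic ribosomal families. Of 250 such genes, 120 were higher and 130 lower, and the 12 with the smallest p and the 6 with the largest change in each direction gave 29 genes. The 15 higher ones were Shroom3, Adgrl4, Capn3, Zfp78, Zfp646, Abcc4, Pcdhb11, Islr, Alkbh4, Tmem177, Fig4, Mtmr1, Rnf145, Ispd and Brd7. The 14 lower ones were Etv6, Shq1, Hey2, Dchs1, Zfp458, Dusp4, Wnt5b, Myef2, Usp31, Kat6a, Arl4d, Hr, Jade2 and Xiap. The set spans lipid phosphatases, a cyclic nucleotide exporter, chromatin enzymes, ubiquitin enzymes and adhesion proteins. Genes on the other strand overlap Etv6, Usp31, Dchs1, Shroom3, Ispd, Myef2 and Zfp646 in the annotation, and Ganc and Islr2 overlap Capn3 and Islr on the same strand, so that some of their reads may belong to the neighbour.

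**Figure D2:**
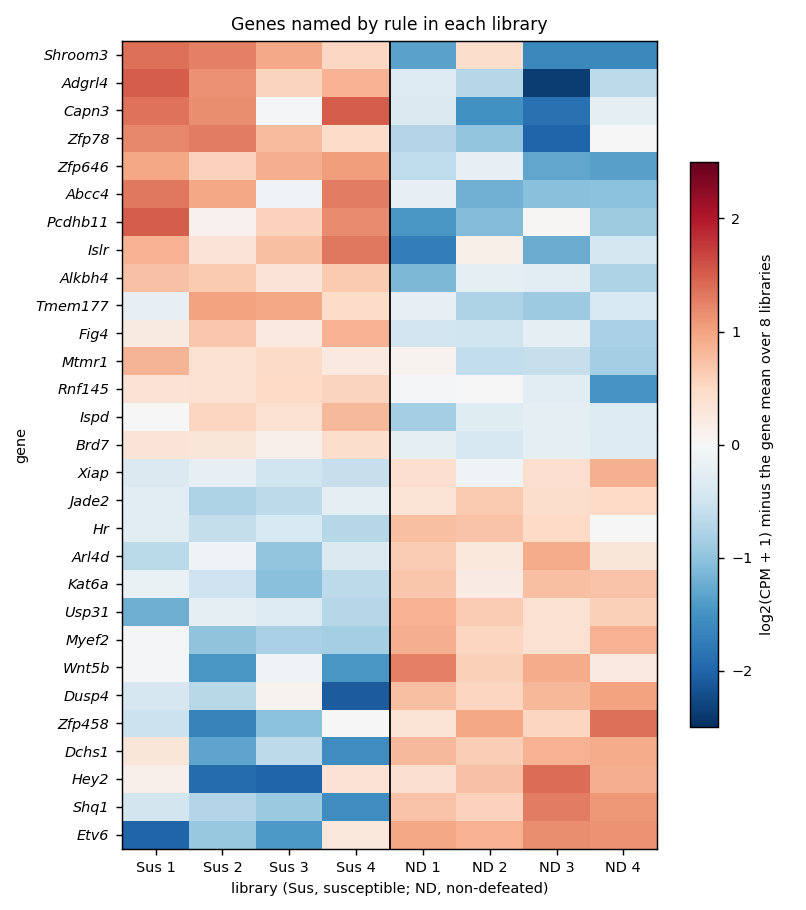
Rows are the 29 genes named by the rule and columns the 8 libraries, susceptible (Sus) left and non-defeated (ND) right. Colour gives log2(CPM + 1) minus the gene's mean over the 8 libraries. The rows were chosen for groups that do not overlap, so the split at the middle follows from the choice, while the depth of colour shows how evenly the 4 libraries of a group took part.

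Phosphoinositides are membrane lipids whose phosphate pattern marks the identity of endosomes and lysosomes. FIG4, a phosphatase, and VAC14, a scaffold, form a complex with the lipid kinase PIKFYVE that makes and turns over the phosphoinositide of late endosomes. Myotubularins such as MTMR1 and MTMR14 remove the 3-phosphate from such lipids. Of 66 phosphoinositide kinases and phosphatases tested, 4 were higher in every susceptible library than in any non-defeated one and 0 were lower, 6.06% against 1.11% of all genes. All 4 were phosphatases of this route or their scaffold: Fig4, Vac14, Mtmr1 and Mtmr14. The list as a whole was balanced, with 33 of 66 members higher and a median log2 fold change of -0.01.

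Fig4 (chromosome 10, 41188172 to 41303260, GRCm38) stood at 29.9, 40.8, 30.2 and 47.1 CPM in susceptible libraries, against 17.9, 17.7, 21.2 and 13.9 CPM in non-defeated libraries. Every susceptible library was above every non-defeated one. The log2 fold change was 1.01 ± 0.26 (SE). Vac14 (chromosome 8, 110618585 to 110720398) had 53.3, 58.95, 49.3 and 58.2 CPM in susceptible libraries, against 38.8, 41.5, 17.995 and 28.4 CPM in non-defeated libraries. The non-defeated libraries 3 and 4 were the lowest, and the log2 fold change of 0.84 ± 0.26 was 0.43 without them. Pikfyve, the kinase of the complex, did not follow: it had 11.6, 7.82, 11.5 and 20.8 CPM in susceptible libraries and 24.1, 13.8, 16.4 and 19.9 CPM in non-defeated libraries. These ranges overlapped, with a log2 fold change of -0.54 ± 0.61.

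Mtmr1 averaged 33.7 ± 6.48 CPM in susceptible libraries and 16.9 ± 5.38 CPM in non-defeated libraries (SD, n = 4 each), a log2 fold change of 0.98 ± 0.27. Mtmr14 averaged 39.4 ± 5.20 CPM in susceptible and 26.05 ± 4.30 CPM in non-defeated libraries, a log2 fold change of 0.58 ± 0.25. Inpp5d, a 5-phosphatase of immune cells and in brain mostly of microglia, lay the other way, with 1.16 ± 1.45 CPM in susceptible libraries and 4.42 ± 2.75 CPM in non-defeated ones, and its groups overlapped.

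**Figure D3:**
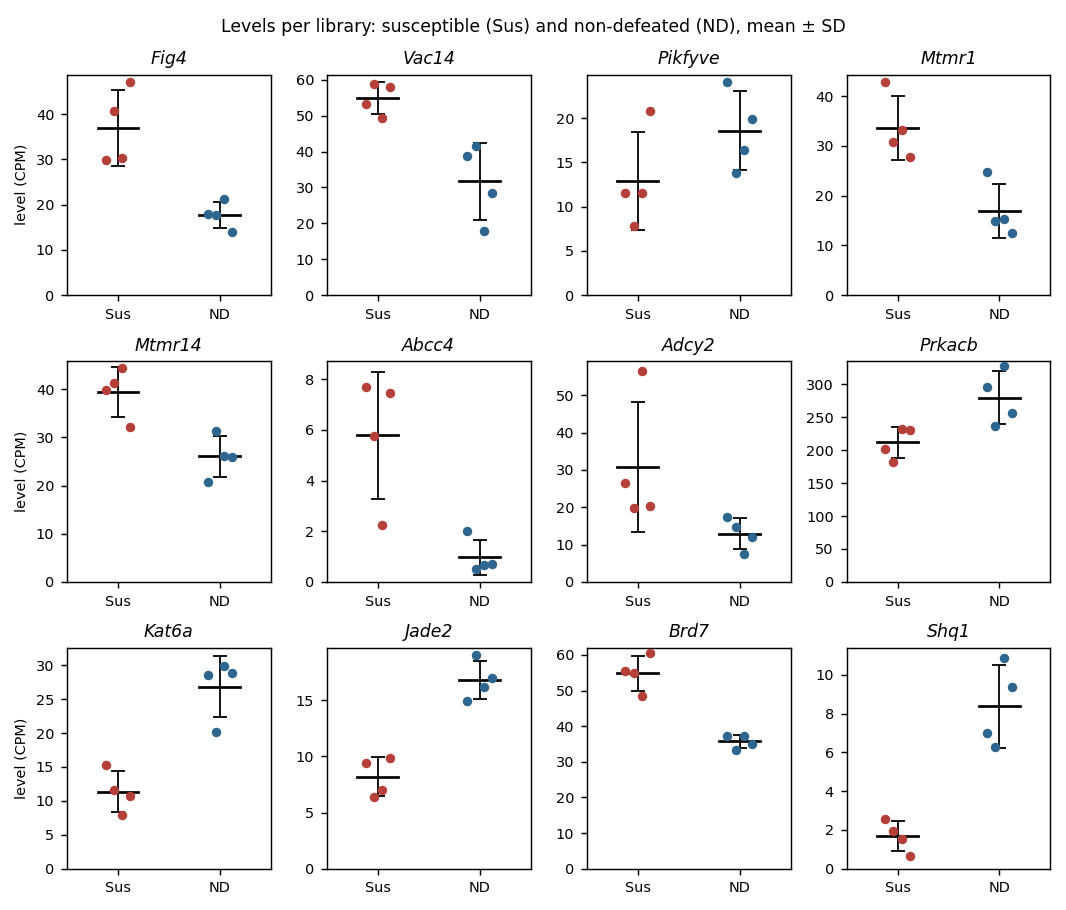
Points are the levels of 12 genes in each library in CPM, susceptible (Sus, red) left and non-defeated (ND, blue) right, with the group mean and SD in black and each axis starting at 0. For Pikfyve the groups overlap, and for the other 11 genes they do not. Fig4 and Brd7 show narrow non-defeated groups, Adcy2 a susceptible group spread by 1 library.

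Few genes of the lysosome, autophagy and endosomal sorting were apart. Lamp2, a lysosomal membrane protein needed for chaperone-mediated autophagy, was the only 1 of 43 lysosomal enzyme and V-ATPase genes whose groups did not overlap: 161, 191, 130 and 131 CPM in susceptible libraries, against 123.3, 107, 112 and 102 CPM in non-defeated libraries. Of 31 autophagy genes, Atg5, which helps to attach lipid to LC3, was the only such member, lower at 46.6 ± 3.37 CPM in susceptible libraries against 59.5 ± 10.99 CPM in non-defeated ones. Snx27, a sorting nexin that returns receptors from endosomes to the surface, was lower at 107 ± 5.27 CPM in susceptible and 145.2 ± 25.6 CPM in non-defeated libraries. Ap5m1, a subunit of an adaptor complex of late endosomes, was higher at 23.6 ± 2.10 CPM in susceptible and 15.6 ± 3.31 CPM in non-defeated libraries. The medians of the lysosomal, autophagy, sorting nexin and coat lists were 0.04, 0.07, 0.02 and 0.03, close to that of all genes.

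Genes of cyclic AMP signalling stood at several points of the pathway. ABCC4, a membrane pump, exports cyclic AMP and other organic anions from cells. Abcc4 had 7.69, 5.76, 2.25 and 7.45 CPM in susceptible libraries, against 1.99, 0.497, 0.676 and 0.710 CPM in non-defeated libraries, a log2 fold change of 1.74 ± 0.45. The lowest susceptible library was only just above the highest non-defeated one. Adcy2, an adenylyl cyclase that makes cyclic AMP, had 26.5, 19.9, 56.6 and 20.4 CPM in susceptible libraries, against 17.4, 14.7, 7.58 and 11.99 CPM in non-defeated libraries, and susceptible 3 was far above the others. Prkacb, a catalytic subunit of protein kinase A, lay lower, with 202, 183, 233 and 230 CPM in susceptible libraries, against 296, 237.5, 328 and 257 CPM in non-defeated libraries. Of 15 adenylyl cyclase and protein kinase A genes tested, these were the only 2 that did not overlap. That is 1 in each direction, 6.67% against 1.11% of all genes. The median of the list was 0.06.

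Receptors for dopamine and noradrenaline, which reach the habenula from midbrain and brainstem, had the highest median of the 97 function lists, 0.65, with 11 of 13 members higher in susceptible mice. None of the 13 had groups that did not overlap. Adra2c, an inhibitory α2 adrenoceptor, had 1.56, 1.75, 14.4 and 4.97 CPM in susceptible libraries, against 1.73, 0.199, 0.451 and 0.304 CPM in non-defeated libraries. The difference lay mainly in susceptible 3 and 4, the libraries with the letter N: the log2 fold change was 1.68 ± 0.68 and, with susceptible 1 and 2 alone, 0.75. Drd2, a dopamine receptor, had 0.137, 1.03, 1.37 and 4.06 CPM in susceptible libraries and 0.108, 0.323, 0.246 and 0 CPM in non-defeated libraries. Adra1a averaged 8.34 ± 4.51 CPM in susceptible and 4.07 ± 3.04 CPM in non-defeated libraries. Drd4 was 1 of the 2 members with the opposite sign, at 0.858 ± 0.594 CPM in susceptible and 1.57 ± 0.682 CPM in non-defeated libraries. The list's median was 0.44 without non-defeated 3 and 4, and 0.58 within the letter H.

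Receptors for neuropeptides did not share a direction, with 20 of 42 higher and a median of -0.06. Brs3 was the only member whose groups did not overlap. Ghsr, the ghrelin receptor, was read in 1 of 4 susceptible libraries at 0.259 CPM, against 3.59, 0, 4.98 and 1.52 CPM in non-defeated libraries. Both orexin receptors lay lower on average: Hcrtr1 had 3.34, 1.80, 0 and 0 CPM in susceptible libraries, against 1.58, 4.23, 7.52 and 5.60 CPM in non-defeated libraries. Hcrtr2 had 0, 3.61, 4.64 and 1.24 CPM in susceptible libraries, against 5.60, 4.52, 5.94 and 5.20 CPM in non-defeated libraries, so that only susceptible 3 reached the non-defeated range. Tacr3, the neurokinin B receptor, averaged 0.332 ± 0.664 CPM in susceptible and 3.02 ± 2.17 CPM in non-defeated libraries. Npffr1, a receptor for RFamide peptides, was higher at 12.4 ± 5.69 CPM in susceptible and 5.46 ± 4.08 CPM in non-defeated libraries, and its log2 fold change of 1.25 ± 0.56 was 0.33 without non-defeated 3 and 4. The peptide precursors had 12 of 33 members higher, a median of -0.09 and no member whose groups did not overlap. Adora2a, a receptor for adenosine, had 1.05, 0, 0 and 1.66 CPM in susceptible libraries, all below the 2.31, 1.99, 2.44 and 6.85 CPM of non-defeated libraries. It was chosen after its values were seen.

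Potassium channels set the resting potential and the firing pattern of habenular neurons. Of 24 inward-rectifier and two-pore channel genes, 2 did not overlap and both were lower (8.33% against 1.11% of all genes), although 13 of 24 members were higher and the median was 0.04. Kcnj3, the GIRK1 subunit of G protein-gated channels through which GABA-B and other receptors silence neurons, had 17.4, 18.2, 15.96 and 8.57 CPM in susceptible libraries, against 27.0, 23.5, 22.8 and 37.8 CPM in non-defeated libraries. The groups did not overlap, though the gap between them was smaller than the non-defeated SD of 6.94 CPM, and the log2 fold change was -0.87 ± 0.28. Kcnk6 averaged 0.818 ± 0.222 CPM in susceptible and 2.71 ± 1.53 CPM in non-defeated libraries. Kcnip3, a calcium sensor that binds A-type channels and also acts as a transcriptional repressor, had 102, 64.1, 109 and 108 CPM in susceptible libraries, against 130, 131, 162 and 119 CPM in non-defeated libraries. Voltage-gated potassium channel genes had 0 such members of 35 and a median of -0.02. Sodium channel subunits had 2 of 11 members higher and a median of -0.15, with no member apart. Gjc1, the gap junction protein connexin 45, was higher at 10.8 ± 4.42 CPM in susceptible and 4.52 ± 2.13 CPM in non-defeated libraries. Ano5, of the anoctamin family, was lower at 3.90 ± 1.10 CPM in susceptible and 7.203 ± 2.28 CPM in non-defeated libraries.

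Synaptic genes were mostly near the all-gene median, and their few members apart were lower. Shank3, a master scaffold of excitatory postsynapses, had 6.87, 1.63, 4.80 and 6.29 CPM in susceptible libraries, against 12.8, 7.23, 6.99 and 8.77 CPM in non-defeated libraries. The gap between the groups was small next to their spread, and the log2 fold change was -0.84 ± 0.42. Nsg2, which guides AMPA receptor trafficking, averaged 454 ± 46.04 CPM in susceptible and 552 ± 55.8 CPM in non-defeated libraries. Of 32 postsynaptic scaffold genes these 2 were lower and 0 higher without overlap (6.25% against 1.11% of all genes). The list's median was 0.03. Among 43 vesicle release genes, Ppfia3, a liprin of the presynaptic active zone, was the only member apart (2.33% lower against 1.11% of all genes). It averaged 28.2 ± 4.82 CPM in susceptible and 38.9 ± 3.40 CPM in non-defeated libraries. Ionotropic glutamate receptors, metabotropic glutamate receptors, GABA-A subunits, serotonin receptors and acetylcholine receptors had no member apart in any of the 5 lists, and their medians ran from -0.04 to 0.08.

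Growth factor genes included 3 of 39 members that were higher without overlap (7.69% against 1.11%) and 0 that were lower. Bdnf, the neurotrophin that acts on TrkB and supports plasticity, had 28.5, 23.6, 26.9 and 26.8 CPM in susceptible libraries, against 13.9, 21.1, 12.7 and 15.1 CPM in non-defeated libraries. Susceptible values were tightly grouped, and the log2 fold change was 0.74 ± 0.27, or 0.59 without non-defeated 3 and 4. An antisense gene overlaps Bdnf in the annotation. Igf2r, which clears insulin-like growth factor 2 and carries enzymes to lysosomes, averaged 7.36 ± 0.773 CPM in susceptible and 3.97 ± 1.46 CPM in non-defeated libraries. Pdgfra, a receptor that marks oligodendrocyte precursors, had 34.8, 22.6, 35.6 and 36.2 CPM in susceptible libraries, against 22.4, 16.2, 8.53 and 21.6 CPM in non-defeated libraries. Of the 12 precursor markers, Pdgfra included, 7 were higher, with a median of 0.12. Without non-defeated 3 and 4, 5 were higher and the median was -0.03. The growth factor list's median changed from 0.14 to -0.09 without non-defeated 3 and 4.

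Ligands, inhibitors and targets of developmental pathways lay on both sides. Wnt5b, a secreted non-canonical Wnt ligand, had 1.67, 0, 1.56 and 0 CPM in susceptible libraries, against 5.51, 3.16, 4.24 and 2.26 CPM in non-defeated libraries. Sfrp4, a secreted Wnt antagonist, was lower too, at 1.32 ± 0.334 CPM in susceptible and 3.67 ± 1.40 CPM in non-defeated libraries. Wnt3 was higher at 57.9 ± 5.99 CPM in susceptible and 40.4 ± 15.4 CPM in non-defeated libraries, but by a small margin between the nearest libraries (53.0 CPM in susceptible 1 and 51.9 CPM in non-defeated 1). Of 39 Wnt genes, 25 were higher, with a median of 0.13 that became -0.04 without non-defeated 3 and 4. Hey2, a transcriptional target of Notch, had 3.39, 0.0573, 0 and 4.14 CPM in susceptible libraries, against 4.28, 5.62, 9.51 and 6.57 CPM in non-defeated libraries. It was the only member apart among 26 Notch and Hedgehog genes (3.85% lower against 1.11% of all genes). Of the 26, 16 were higher, with a median of 0.21, or -0.12 without non-defeated 3 and 4. Dusp4, a phosphatase that switches off ERK and related kinases and is itself induced by ERK, had 3.07, 2.38, 4.78 and 0.285 CPM in susceptible libraries, against 8.19, 6.94, 8.65 and 9.92 CPM in non-defeated libraries. Etv5, another gene known to be induced by ERK, lay the same way, at 31.0 ± 5.75 CPM in susceptible and 50.5 ± 17.6 CPM in non-defeated libraries. Mapk4, an atypical MAP kinase, averaged 139 ± 4.85 CPM in susceptible and 162 ± 4.30 CPM in non-defeated libraries. The MAP kinase list held 2 lower and 0 higher members apart among 64, 3.12% against 1.11% of all genes. The list did not share a direction, with 33 members higher, 31 lower and a median of 0.01. Unadjusted p (limma-trend) was under 0.05 for 2 higher members and for 1 lower member.

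Adhesion and shape genes gave some of the largest differences at low levels. Adgrl4, an adhesion receptor of endothelial cells, had 13.7, 10.4, 6.55 and 8.41 CPM in susceptible libraries, against 3.07, 2.14, 0 and 2.26 CPM in non-defeated libraries. Shroom3, which constricts the apex of epithelial cells through actin, had 6.96, 6.36, 4.88 and 3.36 CPM in susceptible libraries, against 0.216, 3.13, 0 and 0 CPM in non-defeated libraries. Dchs1, a giant cadherin that binds Fat proteins, was lower, with 4.28, 0.716, 1.74 and 0.466 CPM in susceptible libraries, against 6.59, 5.59, 6.91 and 7.18 CPM in non-defeated libraries. Among 33 classic cadherins and other protocadherins it was the only member apart. Most of that list lay the other way, with 23 members higher and a median of 0.26, or 0.01 without non-defeated 3 and 4. Pcdhb11, of the clustered protocadherins that give neurons a surface identity, averaged 4.31 ± 2.20 CPM in susceptible and 0.651 ± 0.807 CPM in non-defeated libraries. It was the only one of 33 clustered protocadherins whose groups did not overlap. Islr, a secreted immunoglobulin and leucine-rich repeat protein, averaged 5.29 ± 1.80 CPM in susceptible and 1.23 ± 1.26 CPM in non-defeated libraries, and it overlaps Islr2 on its own strand. Endothelial markers were summed beside Adgrl4: they gave 147 to 268 CPM in susceptible libraries and 131 to 198 CPM in non-defeated libraries, with 10 of 14 members higher and a median of 0.23. Their part in the difference of Adgrl4 was not tested.

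Chromatin enzymes were among the lower genes with the smallest p. KAT6A is a histone H3 acetyltransferase that works with a BRPF scaffold protein, and JADE2 is a scaffold of the related KAT7 complex. Kat6a (chromosome 8, 22859535 to 22943259) had 15.3, 11.7, 7.86 and 10.7 CPM in susceptible libraries, against 28.6, 20.2, 29.8 and 28.8 CPM in non-defeated libraries. Each non-defeated library exceeded every susceptible one, non-defeated 2 by the least, and the log2 fold change was -1.19 ± 0.25. Jade2 had 9.41, 6.42, 7.003 and 9.89 CPM in susceptible libraries, against 14.96, 18.99, 16.2 and 16.96 CPM in non-defeated libraries, a log2 fold change of -0.97 ± 0.28. These were the 2 members apart among 26 acetyltransferases and partners (7.69% lower against 1.11% of all genes), while the list's median was -0.04 and 13 of 26 were higher. Brd7, an acetyl-lysine reader of a SWI/SNF remodelling complex, was higher, with 55.5, 54.8, 48.4 and 60.5 CPM in susceptible libraries, against 37.2, 33.5, 37.4 and 35.05 CPM in non-defeated libraries. Both groups were compact, and the log2 fold change was 0.60 ± 0.16. DESeq2 called both Kat6a and Brd7, with adjusted p of 0.0023 and 0.010. Ss18l1, the neuronal CREST subunit of such a complex, was lower at 55.98 ± 6.89 CPM in susceptible and 73.4 ± 9.25 CPM in non-defeated libraries. Cbx6, a Polycomb reader, averaged 164 ± 9.42 CPM in susceptible and 205 ± 5.84 CPM in non-defeated libraries, and Med13, of the Mediator kinase module, 8.18 ± 1.74 CPM in susceptible and 16.2 ± 5.28 CPM in non-defeated libraries. The arginine methyltransferase gene Prmt8, known as specific to brain, was higher at 51.5 ± 7.12 CPM in susceptible and 34.8 ± 7.12 CPM in non-defeated libraries, and Prdm11 was lower at 2.08 ± 0.610 CPM in susceptible and 4.30 ± 1.23 CPM in non-defeated libraries. Ss18l1 was the only member apart among 47 chromatin remodellers (2.13% lower against 1.11% of all genes). Cbx6 was the only one among 36 DNA methylation and Polycomb genes (2.78%), and Med13 among 45 Mediator and RNA polymerase II genes (2.22%). Prmt8 and Prdm11 were the only ones among 48 histone methyltransferases (2.08% in each direction). Deacetylases and histone demethylases had no member apart.

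DNA-binding factors had lower members in 2 small families. Etv6, an ETS repressor, had 0.755, 2.66, 1.61 and 7.45 CPM in susceptible libraries, against 12.7, 11.8, 14.7 and 14.4 CPM in non-defeated libraries. Susceptible 4 alone came near the non-defeated range, and the log2 fold change was -2.05 ± 0.48. With Etv5, 2 of 18 ETS factors were lower and 0 higher without overlap (11.1% against 1.11%), and the list's median was -0.19, or -0.04 without non-defeated 3 and 4. Among 11 GLI, GLIS and ZIC factors, 3 were lower and 0 higher without overlap (27.3% against 1.11%). By sign 9 were lower and 2 higher, and the median was -0.16, or -0.27 without non-defeated 3 and 4. The family was not uniform: unadjusted p (limma-trend) was under 0.05 for 2 lower members and for 1 higher member. Glis3, a factor of endocrine and kidney development, had 0.0458, 0.0286, 0.832 and 0 CPM in susceptible libraries, against 4.65, 2.93, 3.24 and 3.83 CPM in non-defeated libraries. Zic5 had 15.3, 12.98, 15.2 and 8.75 CPM in susceptible libraries, against 19.7, 24.0, 23.3 and 27.5 CPM in non-defeated libraries. Zic4, which Zic1 overlaps on the other strand, had 71.5, 72.3, 87.0 and 56.01 CPM in susceptible libraries, against 87.2, 103, 90.3 and 94.1 CPM in non-defeated libraries. ZIC proteins are known from the dorsal midline of the developing brain. Thalamus markers, summed beside them, gave 1207 to 1732 CPM in susceptible and 1420 to 1896 CPM in non-defeated libraries. Of 15 thalamus markers 3 were higher, with a median of -0.25, or -0.13 without non-defeated 3 and 4. Their part in these differences was not tested.

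Zinc finger genes with numbered names, a family of mostly KRAB repressors, held 4 higher and 5 lower members apart among 377, shares of 1.06% and 1.33% that are near the background. Zfp78 had 11.6, 12.2, 8.37 and 6.52 CPM in susceptible libraries, against 2.27, 1.74, 0.369 and 4.41 CPM in non-defeated libraries. Zfp646 averaged 15.9 ± 2.30 CPM in susceptible and 4.25 ± 2.05 CPM in non-defeated libraries and is overlapped by Prss53 and Zfp668. Zfp458 was lower, at 2.27 ± 1.53 CPM in susceptible and 8.55 ± 3.16 CPM in non-defeated libraries. Hr, the hairless corepressor of nuclear receptors such as those for thyroid hormone and vitamin D, had 12.8, 9.88, 11.7 and 9.14 CPM in susceptible libraries, against 26.8, 26.1, 22.2 and 15.5 CPM in non-defeated libraries. Hr is a known target of thyroid hormone in brain. Tshb, the β subunit of thyrotropin, had 2 pooled reads in susceptible libraries, against 1.99, 1.99, 3.48 and 0.431 CPM in non-defeated libraries. Myef2, a repressor of myelin basic protein transcription in mouse, averaged 9.45 ± 3.58 CPM in susceptible and 24.9 ± 4.47 CPM in non-defeated libraries, and it overlaps Slc24a5. Mbp averaged 7212 ± 1388 CPM in susceptible and 5141 ± 1015 CPM in non-defeated libraries, with overlapping groups. Its log2 fold change of 0.49 ± 0.18 was 0.24 without non-defeated 3 and 4. Of 14 mature oligodendrocyte markers, Mbp included, 12 were higher, or 3 without those libraries. A link between Myef2 and Mbp was not tested. Esrrb was higher at 1.27 ± 0.713 CPM in susceptible and 0.178 ± 0.162 CPM in non-defeated libraries, Foxb1 higher at 8.92 ± 1.94 CPM in susceptible and 4.48 ± 2.58 CPM in non-defeated libraries, and Sox8 lower at 43.9 ± 4.25 CPM in susceptible and 64.5 ± 6.83 CPM in non-defeated libraries.

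RNA-handling genes gave the gene with the smallest p among the 14 lower ones. SHQ1 is a chaperone that loads dyskerin when box H/ACA ribonucleoproteins, telomerase among them, are built. Shq1 (chromosome 6, 100568256 to 100671157) had 2.56, 1.95, 1.56 and 0.673 CPM in susceptible libraries, against 6.98, 6.26, 10.9 and 9.38 CPM in non-defeated libraries. All 4 susceptible libraries were well below the lowest non-defeated one, and the log2 fold change was -1.83 ± 0.38. DESeq2 called it with an adjusted p of 0.010. Of 11 genes of that assembly route Shq1 was the only one apart, and the median was -0.01. Alkbh4, a demethylase that acts on actin, was higher, with 14.1, 13.3, 10.3 and 13.1 CPM in susceptible libraries, against 3.16, 6.71, 6.48 and 4.31 CPM in non-defeated libraries. Mbnl2, a regulator of neuronal splicing, averaged 245 ± 25.6 CPM in susceptible and 327 ± 48.5 CPM in non-defeated libraries. It was the only one apart among 66 SR and hnRNP-type factors (1.52% lower against 1.11% of all genes). Of the 66, 21 were higher, or 34 within the letter H. Hars2, the mitochondrial histidyl-tRNA synthetase, averaged 22.8 ± 2.45 CPM in susceptible and 29.9 ± 1.94 CPM in non-defeated libraries and has Hars as an overlapping neighbour. Among 58 DNA repair genes, 32 were higher, with a median of 0.07, and 1 was apart higher (1.72%) and 2 lower (3.45%). The lower ones were Rad52 and Pms2, Rad52 at 10.4 ± 1.75 CPM in susceptible and 20.2 ± 3.82 CPM in non-defeated libraries, and Pms2 at 8.77 ± 2.27 CPM in susceptible and 16.8 ± 2.54 CPM in non-defeated libraries.

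Protein turnover was represented by ubiquitin enzymes, proteases and proteasome parts. Usp31, a deubiquitinase linked to NF-κB signalling, had 7.71, 16.3, 15.1 and 11.4 CPM in susceptible libraries, against 35.7, 30.3, 25.5 and 29.7 CPM in non-defeated libraries. The groups were well separated, with a log2 fold change of -1.24 ± 0.29, and DESeq2 called it with an adjusted p of 0.036. It was the only member apart among 61 USP genes (1.64% lower against 1.11% of all genes). Xiap, a ubiquitin ligase that inhibits caspases, had 27.4, 30.5, 24.9 and 23.4 CPM in susceptible libraries, against 47.8, 32.7, 47.4 and 66.5 CPM in non-defeated libraries. Capn3, a calpain best known from muscle, was higher at 7.15 ± 3.14 CPM in susceptible and 1.14 ± 1.12 CPM in non-defeated libraries. Rnf145, a ligase of the endoplasmic reticulum that responds to sterol and degrades HMG-CoA reductase, had 127, 127, 139 and 146 CPM in susceptible libraries, against 95.5, 97.9, 80.0 and 34.9 CPM in non-defeated libraries. Its log2 fold change of 0.90 ± 0.27 was 0.46 without non-defeated 3 and 4. Among 46 proteasome genes, Psmb8, the inducible immunoproteasome subunit, was higher at 3.70 ± 1.11 CPM in susceptible and 1.51 ± 0.681 CPM in non-defeated libraries. Psmf1, a proteasome inhibitor, was higher at 70.0 ± 4.63 CPM in susceptible and 55.7 ± 7.71 CPM in non-defeated libraries, and Psmd11, a lid subunit, lower at 85.2 ± 9.99 CPM in susceptible and 112 ± 14.8 CPM in non-defeated libraries. Of the 46, 4.35% were apart higher and 2.17% lower, against 1.11% of all genes in each direction. Bag2, a cochaperone of HSP70, was lower at 13.2 ± 2.25 CPM in susceptible and 22.4 ± 3.46 CPM in non-defeated libraries. Among 75 heat shock and J-domain genes, 2 were apart, both lower (2.67% against 1.11% of all genes).

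Motor and cytoskeletal genes apart ranged from abundant ones with small differences to scarce ones with large ones. Kif5b, the kinesin-1 heavy chain, averaged 444 ± 50.3 CPM in susceptible and 357 ± 25.9 CPM in non-defeated libraries, and Dync1h1, the dynein heavy chain, 61.9 ± 15.5 CPM in susceptible and 38.5 ± 5.33 CPM in non-defeated libraries. Both move cargo along axons in opposite directions, and both were higher among 56 kinesin and dynein genes with a median of 0.00. These 2 were the only members apart, 3.57% higher against 1.11% of all genes. Map6, which stabilises microtubules, was higher at 159 ± 5.17 CPM in susceptible and 113.4 ± 36.7 CPM in non-defeated libraries, and its log2 fold change of 0.55 ± 0.21 was 0.16 without non-defeated 3 and 4. Stmn4 was higher by a narrow margin at 353 ± 15.9 CPM in susceptible and 326 ± 5.25 CPM in non-defeated libraries. Tubb3, the neuronal β-tubulin, was lower at 247 ± 23.6 CPM in susceptible and 289 ± 12.1 CPM in non-defeated libraries. Of 38 genes in the list of tubulins, microtubule-associated proteins and neurofilaments, 2 were apart higher (5.26%) and 1 lower (2.63%). Wasf1, which starts branched actin at synapses, had 119, 111, 95.5 and 115 CPM in susceptible libraries, against 84.5, 81.9, 93.1 and 32.3 CPM in non-defeated libraries, so that the lowest susceptible and the highest non-defeated value nearly met. Arhgap25, a Rac inhibitor of blood cells, had 3.14, 1.92, 2.60 and 0.155 CPM in susceptible libraries and no read in the 4 non-defeated libraries, which with the non-defeated group at its floor of 3 pooled reads is at least 116-fold higher. Blood cell markers were higher in these susceptible libraries as well, at 871 to 5680 summed CPM in susceptible and 263 to 825 in non-defeated libraries, and their part in Arhgap25 was not tested. Arhgef28 and Arhgef3 are exchange factors of small GTPases. Arhgef28 was higher at 20.4 ± 2.73 CPM in susceptible and 14.1 ± 2.03 CPM in non-defeated libraries. Arhgef3 was lower at 29.2 ± 5.65 CPM in susceptible and 44.3 ± 6.57 CPM in non-defeated libraries. Of 79 regulators of the Ras superfamily, Arhgap25 included, 2 were apart higher (2.53%) and 1 lower (1.27%). Arl4d, a small GTPase of the plasma membrane, had 4.78, 7.65, 3.70 and 6.21 CPM in susceptible libraries, against 13.4, 10.1, 16.5 and 10.5 CPM in non-defeated libraries.

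Metabolic genes differed little as groups. Acadm, which oxidises medium-chain fatty acids, had 61.0, 56.3, 58.6 and 63.6 CPM in susceptible libraries, against 49.1, 42.7, 39.7 and 39.001 CPM in non-defeated libraries. These groups were tight, and the log2 fold change was 0.48 ± 0.16. Msmo1, a sterol demethylase of cholesterol synthesis, averaged 307 ± 25.8 CPM in susceptible and 239 ± 21.2 CPM in non-defeated libraries. Of 31 cholesterol genes, 23 were higher, with a median of 0.11 that was 0.02 without non-defeated 3 and 4. Dlat, a pyruvate dehydrogenase subunit, did not overlap but averaged 188 ± 4.95 CPM in susceptible and 172 ± 3.02 CPM in non-defeated libraries, a log2 fold change of 0.12 ± 0.12. Tmem177, a factor for cytochrome c oxidase assembly, had 11.7, 28.4, 27.7 and 19.2 CPM in susceptible libraries, against 11.6, 7.61, 6.78 and 10.2 CPM in non-defeated libraries, where susceptible 1 and non-defeated 1 nearly met. Nuclear genes of oxidative phosphorylation had 32 of 85 members higher, no member apart and a median of -0.03, which was 0.19 without non-defeated 3 and 4. Ispd, needed to glycosylate dystroglycan, averaged 23.6 ± 5.59 CPM in susceptible and 12.5 ± 2.40 CPM in non-defeated libraries. Nfil3, a repressor in the clock's output, was higher at 12.6 ± 1.44 CPM in susceptible and 5.84 ± 3.14 CPM in non-defeated libraries.

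Immediate early genes are switched on within minutes of neuronal activity, in part through cyclic AMP response elements bound by CREB. Of 19 tested, 6 were higher and 13 lower in susceptible mice, with a median of -0.12 that was 0.00 without non-defeated 3 and 4, and no member was apart. Fos and Junb, which encode partners in the AP-1 factor, had the smallest p of the list. To show where such elements lie, the 150 bases before the start of both genes follow, 5′ to 3′ on the gene's strand (RefSeq, GRCm38.p6; chr12:85473740-85473889, plus strand, and chr8:84978749-84978898, minus strand). Capitals mark each TGACG, the core of a cyclic AMP response element, found on either strand.
Fos: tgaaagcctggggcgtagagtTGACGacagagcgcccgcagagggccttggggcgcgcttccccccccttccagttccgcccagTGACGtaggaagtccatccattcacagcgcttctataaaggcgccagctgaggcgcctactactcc
Junb: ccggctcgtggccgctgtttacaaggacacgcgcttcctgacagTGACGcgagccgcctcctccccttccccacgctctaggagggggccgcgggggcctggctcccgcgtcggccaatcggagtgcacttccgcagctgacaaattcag

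The Fos stretch holds 2 copies and the Junb stretch 1. Within 250 bases before the start, TGACG on either strand was found for 11 of the 16 immediate early genes with an entry in the RefSeq promoter table, and in 17.8% of all 32851 promoters. The CArG box, bound by serum response factor, was found for 1 of the 16 and in 1.47% of all. A gene counted where any of its promoter entries matched, while the percentages are shares of single entries. The counts and the percentages are therefore not directly comparable. Only exact matches were counted, and bases further upstream were not searched. A match, or the lack of one, describes letters in this window only.

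Fos had 2.11, 3.32, 0.590 and 1.40 CPM in susceptible libraries, against 0.346, 15.4, 8.67 and 11.99 CPM in non-defeated libraries. Of the non-defeated libraries, 3 were above every susceptible one and non-defeated 1 was below all of them. The log2 fold change was -1.44 ± 0.67, and -0.82 without non-defeated 3 and 4. Junb had 9.07, 8.57, 14.2 and 4.89 CPM in susceptible libraries, against 9.55, 23.5, 14.3 and 22.8 CPM in non-defeated libraries, and only susceptible 3 reached the non-defeated range. Egr1 averaged 30.4 ± 14.8 CPM in susceptible and 45.2 ± 6.09 CPM in non-defeated libraries, and Fosb was read in 1 of 4 susceptible and in all 4 non-defeated libraries. Genes responsive to glucocorticoids, the stress hormones of the adrenal gland, had 4 of 20 members higher, a median of -0.11 and no member apart.

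Across the 97 function lists, the median lay within 0.1 of 0 on the log2 scale for 77, and 40 lists had no member apart. Leaving out non-defeated 3 and 4 turned the sign of the median in 45 of the 97, and keeping only susceptible 1 and 2 turned it in 26.

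**Figure D4:**
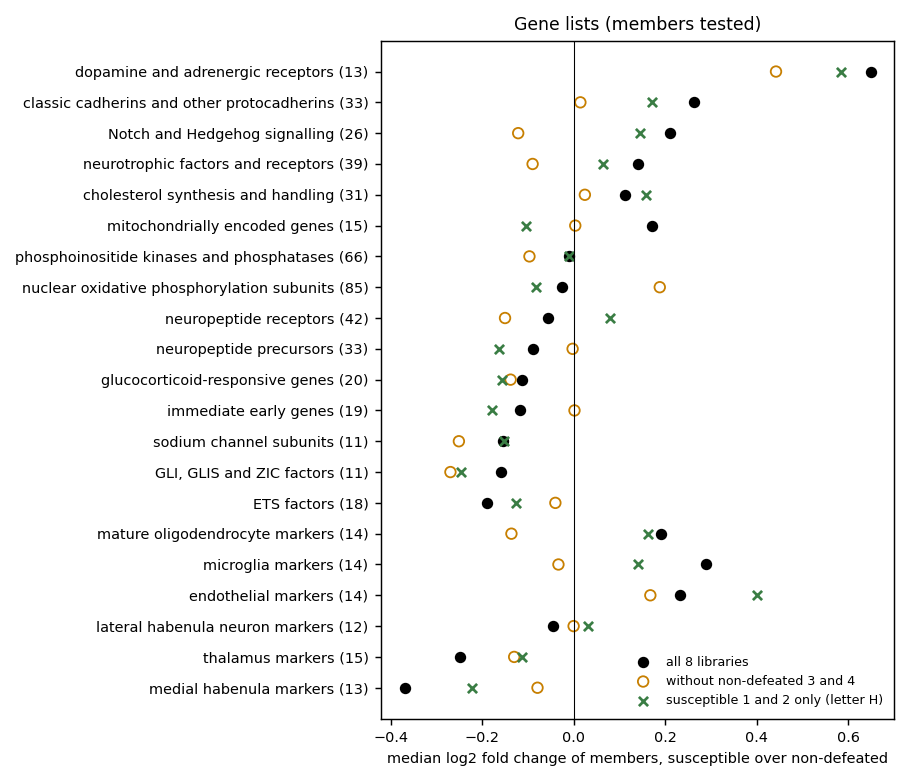
Each row is a gene list, with the number of members tested in brackets, and the axis is the median log2 fold change of its members, susceptible over non-defeated. Filled points use all 8 libraries, open points leave out non-defeated 3 and 4, and crosses keep only susceptible 1 and 2. Dopamine and adrenergic receptors stay above 0 in all 3, at 0.65, 0.44 and 0.58, while microglia markers go to -0.03 and mature oligodendrocyte markers to -0.14 without non-defeated 3 and 4.

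Markers of the cell types in and around the punch were measured in every library, and all members of the 14 marker lists that the table holds were read in at least 1 of the 8 libraries. Lateral habenula neuron markers summed to 2858 to 2974 CPM in susceptible and 2637 to 3607 CPM in non-defeated libraries. Medial habenula markers, from the nucleus beside it, summed to 1120 to 1373 CPM in susceptible and 1125 to 1763 CPM in non-defeated libraries, with 2 of 13 members higher and a median of -0.37 that was -0.08 without non-defeated 3 and 4. Markers of hippocampus and cortex neurons summed to 111 to 317 CPM in susceptible and to 212 to 338 CPM in non-defeated libraries. Of these 11 markers, 3 were higher and 1 was apart, lower (9.09% against 1.11% of all genes). Their median was -0.30, or -0.27 without non-defeated 3 and 4 and -0.31 within the letter H. Mature oligodendrocyte markers summed to 14480 to 19190 CPM in susceptible libraries, against 10950 to 16190 CPM in non-defeated libraries, where replicates 3 and 4 were the lowest. Astrocyte markers summed to 4363 to 5477 CPM in susceptible and 3280 to 5727 CPM in non-defeated libraries, and microglia markers to 381 to 530 CPM in susceptible and 271 to 432 CPM in non-defeated libraries. The groups overlapped for each of these sums. Of the 14 lists, the sums of 2 did not overlap: blood cell markers, whose values stand beside Arhgap25 above and whose 5 members were all higher (median 1.80), and the 2 pituitary and pineal markers, Tshb among them, at 2.23 to 4.44 CPM in susceptible and 4.52 to 6.09 CPM in non-defeated libraries. The part of these marker levels in the differences above was not tested.

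**Figure D5:**
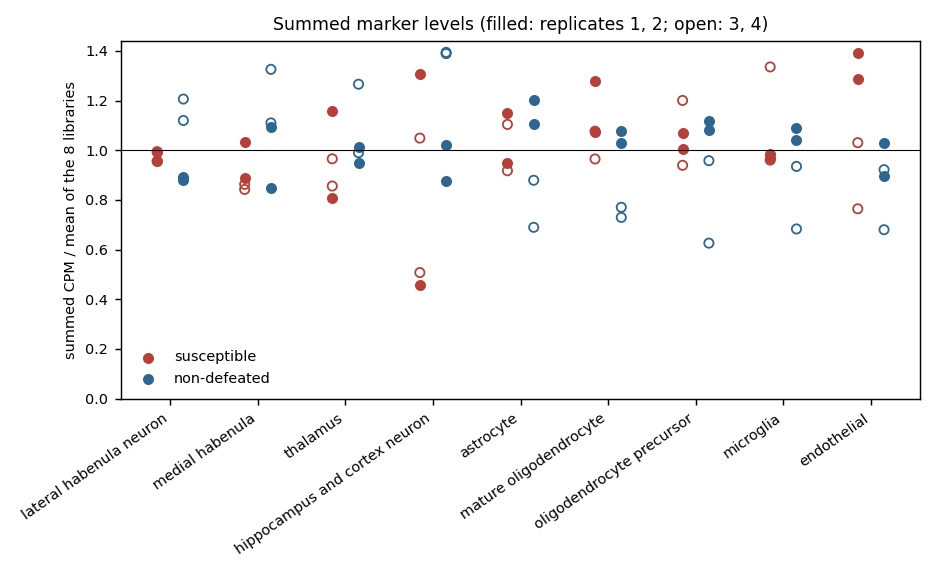
Points are summed marker levels per library divided by the mean of the 8 libraries, for 9 cell types and regions, with susceptible (red) left of non-defeated (blue). Filled points are replicates 1 and 2 and open points replicates 3 and 4. The open blue points of non-defeated 3 and 4 lie highest for lateral habenula neurons and lowest for mature oligodendrocytes. The groups overlap for these 9, while the sums of blood cell and of pituitary and pineal markers, not plotted, do not.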

How the data were processed

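The 8 libraries were made with SMART-Seq v4 Ultra Low Input from 100 pg of RNA, per the labels' protocols. Per the submitters' processing notes, the authors counted reads with featureCounts on GRCm38 (mm10) and used edgeR. Not given in the sources used here are versions, aligner and strand use. The deposited columns, headed as read counts, hold CPM plus a constant of 0.006078. After subtraction, every gene's value (100%) came to a whole number of reads to within 0.001 read, and those reads were recovered. The deposited interaction ratio has 1 value for each mouse, without a statement of what was divided. The authors' log2 ratios, p-values, FDR, scores and correlations in that table, per the file headers, were not used.

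Log2(TMM-scaled CPM + 1) was fitted with limma-trend (limma 3.58.1, robust, edgeR 4.0.16, R 4.3.3) over the 12 libraries as group means. The filter (filterByExpr, minimum count 10) removed 305 of 17416 genes. Adjusted p is Benjamini-Hochberg over all 17111 genes. Count tests on recovered reads (edgeR quasi-likelihood, DESeq2 1.42.0, voom) were alternatives. Same-numbered libraries are not paired by any label. The procedure was tested on simulated data. Positions come from GENCODE M21, which matched 17402 genes. Gene names follow the files and that annotation.

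Genes named were, in each direction, the 12 with the smallest p and the 6 with the largest change among protein-coding genes of at least 2 CPM whose groups did not overlap, and within described lists up to 4 members with the smallest p and members without overlap. Not every member that this rule allows is described. Adora2a, Gm4793, Hcrtr2, Npffr1 and Pikfyve were chosen after their values were seen. Genes, 111 lists and tests were chosen with earlier results of these data known. A floor is 3 reads pooled over a group. Reads carry no molecular identifiers, so floors cover counting error only. Some members of the lists are not reported here.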

Additional observations from a re-analysis of the deposited data

Results flagged for a closer look

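Over the 104 genes named, in 15 groups of 4 libraries 1 library lay far from the other 3: its gap to the nearest, divided by the range on the log2(CPM + 1) scale, was above Dixon's critical value for 4 samples. Chance sets apart about 1 in 20 groups. Of the 15 groups, 7 were susceptible and 8 non-defeated.

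In the susceptible group, the ratio was 1.0 for Fosb (susceptible 3, at 1.15 CPM), Ghsr (susceptible 4, at 0.259 CPM), Tacr3 (susceptible 1, at 1.33 CPM) and Tshb (susceptible 3, at 0.0537 CPM), each with no read in the other 3 libraries. It was 0.926 for Glis3, with susceptible 3 highest at 0.832 CPM. Low libraries were susceptible 2 for Kcnip3 (0.873, at 64.1 CPM) and Pdgfra (0.912, at 22.6 CPM).

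In the non-defeated group, the ratio was 1.0 for Gm4793 (non-defeated 3, at 0.0205 CPM), with no read in the other 3. High libraries were non-defeated 4 for Adora2a (0.855, at 6.85 CPM), non-defeated 2 for Dlat (0.914, at 177 CPM) and Shroom3 (0.862, at 3.13 CPM), and non-defeated 3 for Pms2 (0.851, at 20.6 CPM). Low libraries were non-defeated 1 for Arhgef3 (0.840, at 34.6 CPM), non-defeated 2 for Kat6a (0.892, at 20.2 CPM) and non-defeated 4 for Wasf1 (0.878, at 32.3 CPM).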

How the results depend on the processing

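DESeq2 called 23 genes. Each of the other alternatives, leaving out any 1 replicate included, called 0 genes, as the limma-trend fit did. The 606 genes with an unadjusted p under 0.05 were 311 where a mean of at least 5 CPM was required, since fewer genes were tested, and 546 to 784 with 1 replicate left out. The replicate block gave 615. Same-numbered libraries did not deviate together, with correlations of -0.01, 0.04, 0.12 and 0.00, so the libraries share only a number. The 380 genes whose groups did not overlap were 228 at a mean of at least 5 CPM, 705 to 994 with 1 replicate left out, 1731 with susceptible 1 and 2 alone (letter H) and 1976 without non-defeated 3 and 4, the last chosen after seeing the data; fewer libraries make overlap rarer by construction. The 104 genes named kept their sign in all 2259 values under 22 alternatives, which for genes apart follows in part from how they were chosen, and 9 passed an adjusted p of 0.05 in DESeq2. Without non-defeated 3 and 4, log2 fold changes came closer to 0 for Foxb1 (0.35, with all libraries 0.98), Nfil3 (0.71, with all 1.14), Wasf1 (0.38, with all 0.69), Wnt3 (0.35, with all 0.60), Msmo1 (0.24, with all 0.36), Psmd11 (-0.24, with all -0.39), Hcrtr1 (-0.98, with all -1.49), Drd4 (-0.22, with all -0.50) and Fosb (-0.39, with all -0.63), beside those given above. With susceptible 1 and 2 alone (letter H) they came closer to 0 for Hcrtr1 (-0.59), Drd2 (0.39, with all 0.98), Egr1 (-0.36, with all -0.64) and Tubb3 (-0.13, with all -0.23). Of 2420 list medians under alternatives, 184 moved by more than the spread between susceptible libraries, 42 of them without non-defeated 3 and 4, and the cause was not tested. At 35.1 to 47.7 M reads, genes under 1 CPM rest on few reads.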
